A study of Mus musculus with 40 samples.

Results

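The regions described here are the wide single-exon m6A peaks of mouse midbrain RNA, that is, peaks that lie within a single exon block and are at least 800 bases wide. A peak is a stretch of RNA in which more reads were found after precipitation with an antibody against m6A than in the input RNA kept aside before it. Each of the 4 groups of mice had 1 list of consensus peaks, as the authors named them, and the wide peaks were taken from these lists by the number of blocks and by the width alone. They were 2022 of 54337 listed peaks in all, and they lay in 719 of the 8361 genes with any peak. The groups were mice homozygous for a transgene of A30P alpha-synuclein (aSyn Tg), 15 mo and 3 mo old, and Wt mice of the same 2 ages. Per the study's methods all were males, the Thy-1 promoter, which is active in neurons, drove the transgene, and Wt mice were C57BL/6J littermates. The strain name given there also carries a Th promoter and a second mutation, which the labels do not mention. The labels list 5 input and 5 immunoprecipitated samples per group, from dissected midbrain, which holds neurons, glia and vessel cells together. The fourth list carried no group in its title and was taken as that of aSyn Tg 15 mo by elimination, the other 3 being titled with their groups. Each list gives 1 value per peak for a whole group, so the peak values below have no replicate error and no test, and differences between lists are descriptions.

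N6-methyladenosine (m6A) is the most common internal mark of messenger RNA. A nuclear methyltransferase complex places it on adenosines within a short consensus, of which GGAC, and most often GGACT, is the core, and reader proteins that bind it affect the splicing, export, translation and decay of the transcript. It is known to lie mostly near stop codons, in 3′UTRs and in long internal exons. The assay reads fragments of RNA and not single bases, so that a wide peak may hold a single site or many, and its width does not count them.

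Stretches of 7 wide peaks are shown first, as chosen examples. Each is the stretch of its peak with the most copies of the motif in capitals, centred on them. The longer stretches of coding genes were also limited to coding sequence. Son and Tro were the genes with the most GGACT in a wide peak. The stretches therefore do not show how motifs usually lie in wide peaks. The first 4 peaks are wide in a long coding exon (Map1a, Son and Tro) or along a noncoding RNA (Peg13), and GGACT is in capitals. The fifth, of Insm1, had the highest fold enrichment and no GGACT, and GGAC is in capitals. The last 2 are short stretches of 3′UTR from peaks of Paqr8 and H6pd, with GGACT in capitals. All read 5′ to 3′ on the transcript strand and were taken from the RefSeq copy of GRCm38.p6, the assembly of mm10.
Map1a: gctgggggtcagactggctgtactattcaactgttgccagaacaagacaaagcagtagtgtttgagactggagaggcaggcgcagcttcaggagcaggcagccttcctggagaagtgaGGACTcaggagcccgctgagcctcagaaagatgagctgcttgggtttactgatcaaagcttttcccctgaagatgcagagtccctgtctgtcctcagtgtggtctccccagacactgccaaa
Son: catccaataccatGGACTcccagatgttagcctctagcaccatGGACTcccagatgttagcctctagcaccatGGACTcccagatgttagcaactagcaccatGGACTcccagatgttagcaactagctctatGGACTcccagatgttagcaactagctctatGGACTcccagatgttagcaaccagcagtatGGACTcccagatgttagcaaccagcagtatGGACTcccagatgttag
Tro: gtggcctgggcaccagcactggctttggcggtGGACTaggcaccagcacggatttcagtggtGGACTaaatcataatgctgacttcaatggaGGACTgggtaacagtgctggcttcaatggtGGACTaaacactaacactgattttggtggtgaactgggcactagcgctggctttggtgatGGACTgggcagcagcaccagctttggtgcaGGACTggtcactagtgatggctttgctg
Peg13: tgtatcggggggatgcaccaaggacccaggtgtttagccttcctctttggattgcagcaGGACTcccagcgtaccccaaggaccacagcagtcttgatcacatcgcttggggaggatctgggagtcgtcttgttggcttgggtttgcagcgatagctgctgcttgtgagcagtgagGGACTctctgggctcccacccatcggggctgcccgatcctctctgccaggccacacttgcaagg
Insm1: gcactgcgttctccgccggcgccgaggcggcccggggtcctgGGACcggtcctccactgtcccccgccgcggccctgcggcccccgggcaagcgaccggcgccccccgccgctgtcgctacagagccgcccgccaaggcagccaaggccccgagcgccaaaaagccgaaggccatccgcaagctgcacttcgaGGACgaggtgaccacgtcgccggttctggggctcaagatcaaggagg
Paqr8: agatatttaaactGGACTgccaagtataac
H6pd: cagataggagagGGACTaaggcctccagca

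The Map1a stretch is chr2:121302635-121302874 on the plus strand, coding sequence of exon block 6 of 8, from a Wt 15 mo peak of 5065 bases that holds 6 GGACT and 35 GGAC. The Son stretch is chr16:91656591-91656830 on the plus strand, coding sequence of exon block 3 of 14, from an aSyn Tg 15 mo peak of 870 bases that holds 11 GGACT, 8 of them in the stretch, where a repeat of the coding sequence carries 1 GGACT in each copy. The Tro stretch is chrX:150646352-150646591 on the minus strand, coding sequence of exon block 11 of 12, with 6 of the 9 GGACT of its 928-base peak. The Peg13 stretch is chr15:72806763-72807002 on the minus strand, within the only exon block of a noncoding gene, from a peak of 3141 bases. The Insm1 stretch is chr2:146222783-146223022 on the plus strand, coding sequence of a gene with 1 exon block, and its peak of 1163 bases holds 7 GGAC. Paqr8 had a wide 3′UTR peak in every list, of 1170 to 1290 bases. Its site, chr1:20936232-20936261 on the plus strand, and the H6pd site, chr4:149981331-149981360 on the minus strand, lie in the last of 5 and of 8 exon blocks. An exon block here is a merged stretch of exon over all transcripts that the annotation GENCODE M21 gives the gene.

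Input RNA levels were read from 19 libraries, 4 of Wt 3 mo and 5 of each other group, with 2163856 to 9195756 reads in genes per library. The shallowest, aSyn Tg 15 mo library 5, also had 10.01% of its reads in its 10 most abundant genes, against 5.45% to 7.89% in the other 18. Markers of neurons, dopaminergic neurons, astrocytes, oligodendrocytes, their precursors, microglia and endothelium were all found, 4 of 4, 6 of 6, 4 of 4, 4 of 4, 2 of 2, 4 of 4 and 2 of 2, whereas the liver markers Alb and Apoa1 were not among the genes used. Of the liver list only Ttr was found, with 0 to 712 counts in aSyn Tg 3 mo libraries and at most 48.7 in the others. Its mean in aSyn Tg 3 mo was 144 counts, so that nearly all of these counts came from a single library. The 3 markers of neighbouring thalamus summed to 1558 to 2506 counts in aSyn Tg 15 mo, 1168 to 2190 in aSyn Tg 3 mo, 1773 to 4413 in Wt 15 mo and 1410 to 2610 in Wt 3 mo. Only Slc1a2, a glutamate transporter of astrocytes, had a wide peak among all these markers.

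The number of wide peaks was 420 in aSyn Tg 15 mo, 482 in aSyn Tg 3 mo, 551 in Wt 15 mo and 569 in Wt 3 mo. They made up 3.22% (95% Wilson interval 2.93 to 3.54) of the 13027 peaks of aSyn Tg 15 mo, 3.62% (3.31 to 3.95) of the 13327 of aSyn Tg 3 mo, 3.90% (3.59 to 4.23) of the 14123 of Wt 15 mo and 4.11% (3.79 to 4.45) of the 13860 of Wt 3 mo. These intervals cover counting error only and not the spread between mice, and the order of the 4 shares was not tested. The median width was almost the same in every list, at 988.5, 988, 989 and 991 bases in that order, and widths in all lists ran between 801 and 5065 bases. Of the 2022 wide peaks 1046 (51.7%) were 800 to 999 bases wide, 762 (37.7%) were 1000 to 1499, 157 (7.76%) were 1500 to 1999, and 57 (2.82%) were 2000 bases or more. The limit itself falls in a gap of the listed widths, which were at most 781 bases below it and at least 801 above it. Just inside it lay peaks of E130012A19Rik with 801 bases, C630043F03Rik with 802 and Olig2 with 803, and just outside it peaks of Acan, Akap11 and Ankrd11 with 781 bases each. There were 195 peaks of 800 to 819 bases and 102 of 780 to 799 bases, and listed edges moved in steps of 30 bases.

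Wide peaks were more enriched than narrower ones in all 4 lists. The fold enrichment, the ratio of immunoprecipitated to input reads that the authors give for a peak, had a median of 10.05 over the wide peaks of aSyn Tg 15 mo, 8.68 in aSyn Tg 3 mo, 9.09 in Wt 15 mo and 7.98 in Wt 3 mo. For the narrower single-exon peaks of the same lists it was 5.23, 4.72, 4.92 and 4.69, and 5.41, 4.91, 5.12 and 4.86 for those of them on exon blocks of at least 800 bases, where a wide peak could lie. The rise with width began far below the limit. Over all lists the median was 3.84 for peaks under 200 bases, 5.23 at 200 to 399, 6.83 at 400 to 599, 7.66 at 600 to 799, 8.58 at 800 to 999, 9.13 at 1000 to 1499 and 9.19 at 1500 bases or more. Beyond 1000 bases it hardly rose further. In each width class aSyn Tg 15 mo had the highest median, and Wt 3 mo the lowest.

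**Figure D1:**
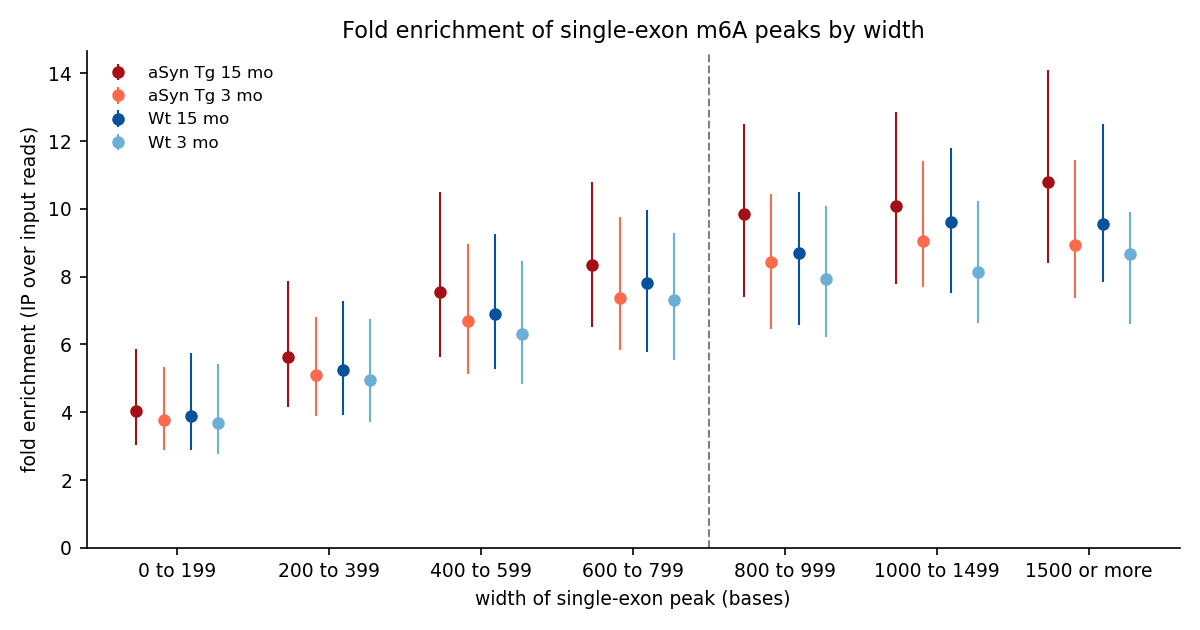
Fold enrichment (immunoprecipitated over input reads, linear axis from 0) of single-exon peaks by width in bases, for the 4 lists in colour. Points are medians over peaks, bars run between the lower and the upper quartile, and the dashed line marks the limit of 800 bases. The medians climb to between 7.93 and 9.84 at 800 to 999 bases and change little beyond that.

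Genes with a wide peak had more input reads, also per kb of exon. Their median over all input libraries was 537 normalised counts for the 391 genes of aSyn Tg 15 mo with an input value, 516 for the 439 of aSyn Tg 3 mo, 431 for the 500 of Wt 15 mo and 429 for the 526 of Wt 3 mo, while genes with a narrower single-exon peak had medians of 191, 197, 188 and 187. Per kb of the summed exon length of the gene, the medians were 77.7, 73.2, 65.1 and 69.4 counts for genes with a wide peak, and 35.4, 36.4, 35.1 and 34.9 for genes with a narrower one. The other input values below are counts per gene and not divided by length, so that long genes have more of them. Input values were not found for 13 of the 719 genes. The difference in enrichment between wide and narrower peaks was seen at each input count. In aSyn Tg 15 mo the wide and narrower medians were 10.1 and 7.52 for genes under 50 counts (8 wide peaks), 11.5 and 5.85 at 50 to 199, 10.2 and 4.65 at 200 to 999, and 8.74 and 3.59 at 1000 or more. In Wt 3 mo they were 8.23 and 6.93, 8.86 and 5.23, 8.31 and 4.14, and 6.96 and 3.16 for the same classes. Thus the narrower peaks had lower fold enrichment the more input reads the gene had, and the wide peaks showed less of this.

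Long exons, and exons of genes with many input reads, held wide peaks most often. The blocks counted were those of at least 800 bases that carried a single-exon peak in the list. In aSyn Tg 15 mo, 1.59% of the 1826 blocks of 800 to 1499 bases held a wide peak. So did 5.61% of the 2496 blocks of 1500 to 2999, 9.14% of the 1859 blocks of 3000 to 5999 and 16.5% of the 394 blocks of 6000 bases or more. In Wt 3 mo these shares were 3.22%, 7.26%, 11.7% and 17.0%. By input count the shares in aSyn Tg 15 mo were 0.81% below 50 counts, 2.78% at 50 to 199, 8.28% at 200 to 999 and 14.9% at 1000 or more, and in Wt 3 mo they were 1.83%, 4.59%, 10.7% and 16.5%. The other 2 lists showed the same order in both respects. The parts of exon length and of input count in these shares were not separated.

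A wide peak covered a minor part of its exon block, with medians of 31.2% in aSyn Tg 15 mo, 33.4% in aSyn Tg 3 mo, 33.5% in Wt 15 mo and 33.2% in Wt 3 mo, the blocks having median lengths of 3623, 3372, 3285 and 3285 bases. Only 32 of the 2022 peaks filled 90% or more of their block. The last exon block of the gene held 1199 peaks (59.3%), an internal block 428 (21.2%), the only block of a gene 232 (11.5%) and the first block 163 (8.06%). Protein-coding genes held 1947 of the peaks in 693 genes, and lincRNA genes 31 peaks in 11 genes.

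Wide peaks reached across the stop codon more often than any other place. The stop codon lay within 962 wide peaks (47.6%) of 368 genes, compared with 16.8% of the narrower single-exon peaks, although a wider window also meets a given point more often by its width alone. A further 637 peaks (31.5%) of 249 genes had at least 90% of their bases in coding sequence without a stop codon, and 193 (9.55%) of 84 genes had at least 90% in 3′UTR. There were 29 such peaks in 5′UTR, 76 outside coding and untranslated sequence, most of them in noncoding RNAs, and 125 of mixed kind. The median fold enrichment was 9.63 for peaks across the stop codon, 7.91 for coding peaks, 8.27 for 3′UTR peaks and 9.17 for peaks of noncoding sequence. Coding peaks lay in genes with more input reads, with a median input of 640 counts per peak against 406 for peaks across the stop codon and 164 for those of noncoding sequence.

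The 8 genes with the widest peaks included genes of the cytoskeleton, of nuclear proteins and of 1 imprinted noncoding RNA. Map1a, which encodes a microtubule-associated protein of axons and dendrites, had the widest peak of each list, with 4106 bases in aSyn Tg 15 mo, 4975 in aSyn Tg 3 mo, 5065 in Wt 15 mo and 4136 in Wt 3 mo, all within coding sequence of an exon block of 8104 bases. Its fold enrichment was low for a wide peak, at 5.60, 5.66, 5.97 and 4.48 in that order. Apc2, a homologue of the tumour suppressor Apc that binds microtubules, had a pair of neighbouring wide peaks in its last exon block in every list. The upstream one was 3023 bases wide in aSyn Tg 15 mo, 3143 in aSyn Tg 3 mo and 3113 in Wt at 15 mo and at 3 mo, and the downstream one, across the stop codon, was 2634, 2694, 2754 and 2754 bases wide. Plec, the gene of the cytolinker plectin, had wide peaks in its last 2 exon blocks only in the aSyn Tg lists, of 1740 and 1801 bases at 15 mo and 2400 and 2580 bases at 3 mo. In both Wt lists the span of a peak of several exon blocks, introns included, ran over these places. Whether its blocks lay on them is not known, since the starts of blocks were lost.

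Peg13, a noncoding RNA expressed from the paternal allele, kept nearly the same width in all lists, with 3111 bases in aSyn Tg 15 mo, 3081 in aSyn Tg 3 mo, 3141 in Wt 15 mo and 3081 in Wt 3 mo, and fold enrichments of 16.0, 11.6, 13.4 and 12.4. Pnmal2, a member of the paraneoplastic antigen family, had peaks of 2865, 3043, 3073 and 2924 bases across its stop codon, with fold enrichments of 7.70, 10.5, 12.9 and 9.59 in the same order. In Pou3f3, an intronless gene of a POU-domain transcription factor, a wide peak of 2190, 2640, 2640 and 2340 bases over the first part of the transcript had fold enrichments of 20.1, 28.6, 21.7 and 14.5. A further wide peak, which held its stop codon and lay mostly in 3′UTR, had 10.9, 11.4, 12.6 and 11.1. The chromatin regulators Ankrd11 and Rai1 showed how a wide region can be listed in pieces. Ankrd11 had 1 peak of 3299 bases in Wt 3 mo, whereas its widest peaks in aSyn Tg 15 mo, aSyn Tg 3 mo and Wt 15 mo were 2160, 2040 and 1350 bases with 1, 2 and 2 further peaks beside them in the same place. Rai1 had 1 peak of 2758 bases in aSyn Tg 3 mo and of 2878 in Wt 3 mo, against widest wide peaks of 1170 and 1649 bases in aSyn Tg 15 mo and Wt 15 mo.

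**Figure D2:**
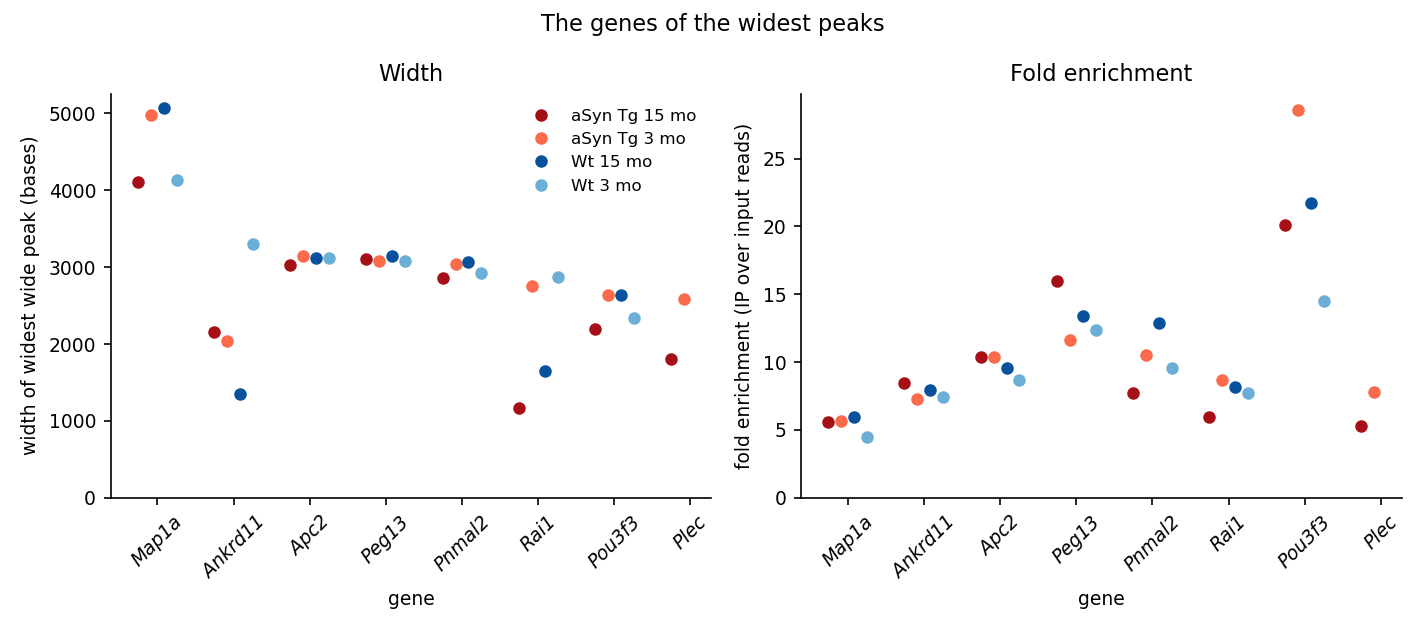
Width in bases (left) and fold enrichment (right) of the widest wide peak at the widest locus of 8 genes, 1 point per list, with axes from 0. Plec has no point for Wt because its peaks there had several exon blocks. Apc2 and Peg13 have like widths in the 4 lists, while Ankrd11 spans 1350 to 3299 bases.

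The genes with the highest fold enrichments differed widely in input. In aSyn Tg 3 mo the peak of Pou3f3 described above, of 2640 bases and with an input of 706 counts, and a peak of 870 bases of the homeobox gene Cux1, with 24.6 at 757 counts, came next after Insm1. Insm1, which encodes a zinc-finger factor of developing neurons and endocrine cells, had 42.8 in aSyn Tg 3 mo, 78.3 in Wt 15 mo and 16.8 in Wt 3 mo, over peaks of 955, 1163 and 895 bases, and its region was listed as 3 narrower peaks in aSyn Tg 15 mo. Its mean input was only 31.0 normalised counts. H6pd, the hexose-6-phosphate dehydrogenase of the endoplasmic reticulum, had 56.5 over a peak of 958 bases in aSyn Tg 15 mo, where aSyn Tg 3 mo, Wt 15 mo and Wt 3 mo held 4, 2 and 3 narrower peaks, none of them above 14.0. Hunk, a protein kinase gene, had 41.7 over 811 bases in aSyn Tg 15 mo, and narrower peaks of 691, 781 and 571 bases with 17.3, 36.5 and 8.97 in aSyn Tg 3 mo, Wt 15 mo and Wt 3 mo. Rassf9 had 43.2 in Wt 15 mo at an input of 16.7 counts, Prdm8, a gene of a PR-domain regulator, 37.9 in Wt 3 mo and 18.7 in aSyn Tg 3 mo at 18.9 counts, and Lig4, the DNA ligase of end joining, 35.5 in Wt 3 mo at 87.8 counts. The place of Prdm8 was listed as several narrower peaks in aSyn Tg 15 mo and Wt 15 mo, the most enriched of them at 60.2 and 82.4. The reads behind each of these ratios are not given in the peak lists, so that no error can be set on them, and the order of the lists differed from gene to gene.

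Among the lowest fold enrichments were those of several cytoskeletal genes with many input reads. Tubb4a, a beta-tubulin gene, had the lowest in 3 of the 4 lists and was low in all, at 2.76 in aSyn Tg 15 mo, 2.81 in aSyn Tg 3 mo, 2.95 in Wt 15 mo and 2.62 in Wt 3 mo, with a mean input of 3104 counts. Map1b, a microtubule-associated protein of growing axons, had 3.28, 3.26, 3.04 and 2.70 at 17547 counts, and Nefh, the heavy neurofilament subunit, 3.12, 3.87, 3.54 and 3.43 at 3375 counts. Chgb, a secretory granule protein, had 3.27, 3.19, 3.41 and 3.04. These 4 genes had wide peaks in every list all the same. The place that is listed under both Atn1 and Gm45234 was also among the lowest, with 2.86 for Atn1 and 2.85 for Gm45234 in aSyn Tg 3 mo, and 2.64 for Gm45234 in Wt 3 mo. Atn1 had only 46.9 input counts, and Gm45234 had no input value. In Purb, which encodes a nucleic acid binding protein, a peak of 1049 bases across the stop codon had 2.71 in Wt 15 mo, with narrower peaks at up to 2.87, 2.61 and 2.12 in the place in aSyn Tg 15 mo, aSyn Tg 3 mo and Wt 3 mo, and a second wide locus in the 3′UTR had 8.82 in aSyn Tg 3 mo, 8.80 in Wt 15 mo and 7.26 in Wt 3 mo. The fold enrichment thus differed strongly between places of 1 RNA.

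Among host RNAs, Malat1, an abundant nuclear noncoding RNA, had the most input reads with a mean of 33942 counts, followed by Map1b, Map1a with 13932 and Ank2, the gene of ankyrin-B, with 8626. The wide peak of Malat1 was 1110, 1110, 1080 and 1050 bases wide in aSyn Tg 15 mo, aSyn Tg 3 mo, Wt 15 mo and Wt 3 mo, with fold enrichments of 4.62, 3.81, 3.96 and 3.65. That of Ank2 lay in its 3′UTR, with fold enrichments of 8.60, 7.93, 9.69 and 6.50. The fewest were those of Cd72, which encodes a surface receptor of B cells, with 6.90 counts. It had a wide 3′UTR peak in every list all the same, with fold enrichments of 5.10, 5.17, 4.81 and 4.58. The next lowest were Gm996, B3gnt2 and Gm42715 with 8.38, 9.70 and 9.97 counts. The wide places of B3gnt2 and Gm42715 were also listed under an overlapping gene, Gm28048 and Srcap, as was that of Atn1, the gene of atrophin 1, under Gm45234, and input counts of overlapping genes are uncertain.

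GGACT was denser in wide peaks than in the rest of the same exons. Over all lists the wide peaks held 1.64 GGACT per kb on the transcript strand and 0.99 on the other strand, and the bases of the same exon blocks that lay in no peak of any list held 0.80 and 0.89. The motifs were counted on both strands, and the shorter GGAC, which every GGACT includes, occurred 6.24 times per kb in wide peaks and 2.74 times in the peak-free bases. Wide peaks were also richer in G and C, at 55.6% against 44.8%, and the part of base composition in the motif density was not tested. Narrower peaks were denser still, with 1.80 GGACT per kb at 400 to 799 bases and 2.02 over all those under 800. A GGACT was present in the middle 800 bases of 71.8% of wide peaks, and in 48.6% of 26842 peak-free exon windows of the same length from genes with a peak, while the shares on the other strand were 55.5% and 49.3%.

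Averaged over loci aligned on their centres, the motif was spread along the wide region. Such an average does not show how the motif lies within a single peak. Between 500 bases upstream and 500 bases downstream of the centre of a locus, GGACT occurred 1.46 to 1.85 times per kb in each step of 100 bases, with no single maximum. Farther out it was 0.90 to 1.42 upstream and 0.77 to 1.24 downstream. On the other strand it stayed between 0.81 and 1.41 over the whole range of 1500 bases to either side. A wide peak held 2 GGACT in the median and up to 11 in Son, which encodes a splicing cofactor and whose repeat is shown above. Tro, the gene of trophinin, had 9 and Brinp1, a gene expressed in neurons, had 8. No GGACT was found in 421 of the 2022 wide peaks, Insm1 among them, which says only that these letters are not there. Loci wide in 1, 2, 3 or 4 lists had 1.5, 1.91, 1.55 and 1.57 GGACT per kb, without an order.

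**Figure D3:**
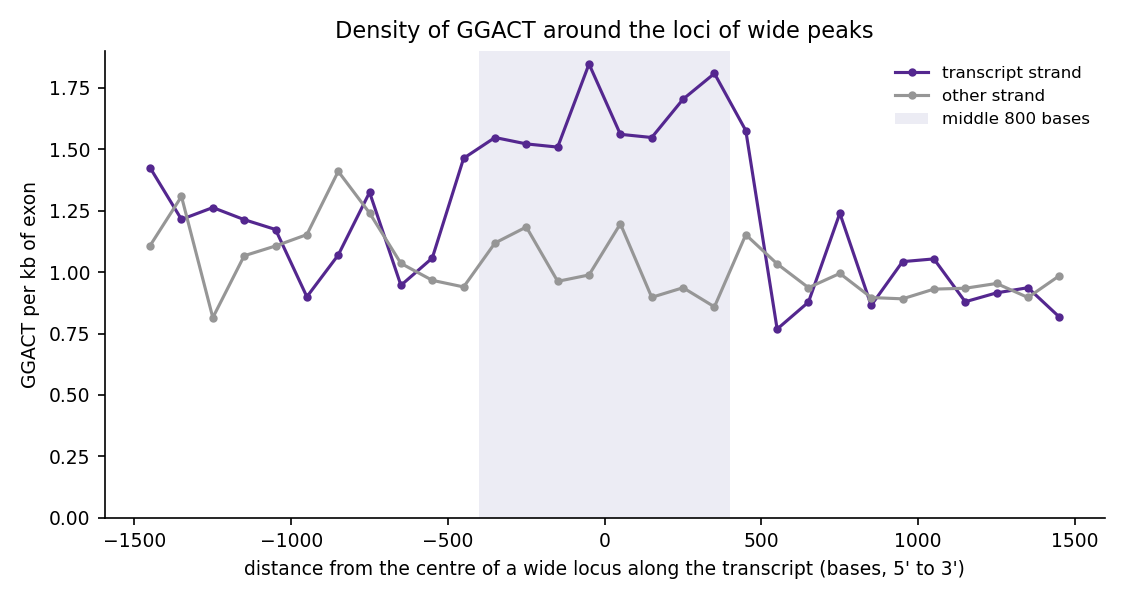
GGACT per kb of exon (linear axis from 0) in steps of 100 bases by distance in bases from the centre of each of the 769 loci of wide peaks, on the transcript strand and on the other strand. The shaded band is the middle 800 bases, which the locus always covers. The transcript strand is at 1.46 to 1.85 within 500 bases of the centre and at 0.77 in the first step beyond it downstream.

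Wide peaks recurred between groups almost without exception. An overlap of at least 1 base on the same strand counted as recurrence, whatever the width of the partner. For a partner of several exon blocks the whole span counted, introns included. Of the 2022 wide peaks, 2021 (99.95%) overlapped a peak in all 3 other lists. The single exception was a Wt 3 mo peak of 810 bases across the stop codon of Sema3a, the gene of the axon guidance factor semaphorin 3A, at chr5:13599300-13600109, with a fold enrichment of 16.1. It had 2 partners in each aSyn Tg list and none in Wt 15 mo, at a mean input of 59.4 counts. The corresponding shares for narrower single-exon peaks were 77.5%, 74.3%, 68.4% and 68.9% in aSyn Tg 15 mo, aSyn Tg 3 mo, Wt 15 mo and Wt 3 mo. A larger window meets a partner more readily, and peaks of 400 to 799 bases already recurred at 99.9%, 99.4%, 99.4% and 99.1%, close to the share of the wide peaks. With single-block partners only, 94.7% of all wide peaks recurred in all 3 other lists, and 90.7% of those of aSyn Tg 15 mo.

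Being wide recurred less. The partner was itself a wide peak in all 3 other lists for 68.8% of the wide peaks of aSyn Tg 15 mo, 59.5% of those of aSyn Tg 3 mo, 52.1% of Wt 15 mo and 50.6% of Wt 3 mo. The lists with fewer wide peaks had the higher share. Joined by overlap, the 2022 peaks formed 769 loci, of which 282 (36.7%) had a wide peak in all 4 lists, 120 in 3, 129 in 2 and 238 (30.9%) in 1 list. Of these 238, 37 were wide in aSyn Tg 15 mo alone, 41 in aSyn Tg 3 mo alone, 75 in Wt 15 mo alone and 85 in Wt 3 mo alone, and every one of them but that of Sema3a had a peak in each other list. In loci wide in 1, 2, 3 and 4 lists the median input of the gene was 324, 433, 415 and 581 counts, the median of the widest peak 869, 931, 960 and 1196 bases, and the medians of the most enriched peak were 8.66, 8.74, 9.54 and 11.1. The widest and most enriched peaks were taken over the lists in which a locus was wide. Loci wide in more lists thus had more values to take the highest from. Within single lists, loci wide in all 4 had median fold enrichments of 10.1, 8.945, 9.515 and 8.325 in aSyn Tg 15 mo, aSyn Tg 3 mo, Wt 15 mo and Wt 3 mo. Their median widths were 1046, 1049.5, 1109 and 1109 bases.

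Where a locus had no wide peak in a list, the region was mostly listed as several peaks. Of the 769 loci, aSyn Tg 15 mo had a wide peak at 410, several peaks at 228, 1 narrower single-exon peak at 120 and 1 peak of several exon blocks at 11. For aSyn Tg 3 mo these numbers were 474, 173, 89 and 33, for Wt 15 mo 541, 137, 44 and 46 with 1 locus without a peak, and for Wt 3 mo 559, 116, 57 and 37. Where single-exon partners were found but none was wide, they still covered 81.5% to 89.8% of the bases of the wide peak in the median of each pair of lists. A single narrower partner had a median width of 716.5 to 778 bases, just under the limit.

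**Figure D4:**
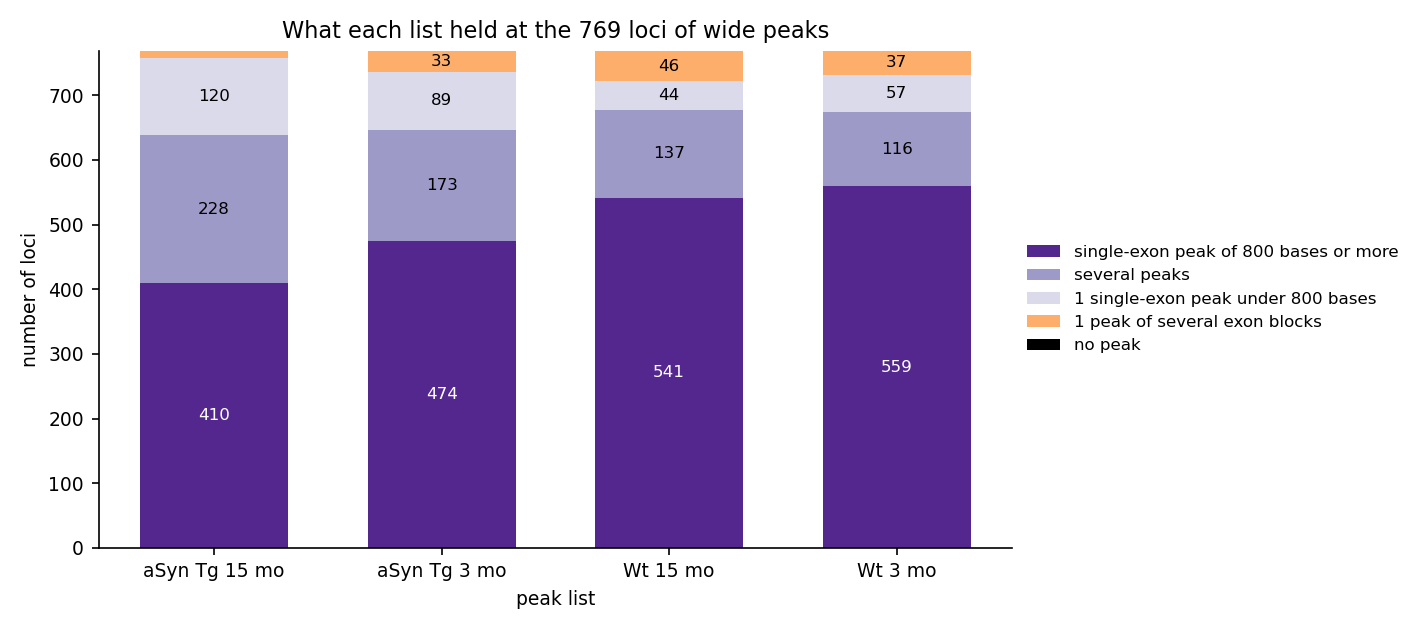
Number of loci out of 769 by what each list held there, stacked from 0. Wide peaks take 410 loci in aSyn Tg 15 mo, 474 in aSyn Tg 3 mo, 541 in Wt 15 mo and 559 in Wt 3 mo, and most of the remainder is several peaks. The 1 locus without a peak, in Wt 15 mo, is too thin to see.

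At the 282 loci that were wide in all lists, fold enrichment kept its order across groups. Spearman's rank correlation of fold enrichment between pairs of lists was 0.79 to 0.82 over these loci, and that of width 0.69 to 0.83. These are descriptions across loci, which share the gene, its input and the peak caller. The ratio of the highest to the lowest fold enrichment of a locus had a median of 1.34, and exceeded 2 at 8 loci. The largest ratio was that of Mars2, the mitochondrial methionyl-tRNA synthetase, with 27.2 in aSyn Tg 15 mo, 10 in aSyn Tg 3 mo, 14.6 in Wt 15 mo and 14.6 in Wt 3 mo. It was followed by the upstream locus of Irf2bp1, a transcriptional co-repressor, with 27.2, 22.1, 30.5 and 11.8, by Flrt1, a cell adhesion gene, with 5.30, 9.85, 13.6 and 11.8, and by Trio, an exchange factor for small GTPases, with 17.1, 8.33, 8.65 and 7.21. Mars2 and Trio were high in aSyn Tg 15 mo, Irf2bp1 low in Wt 3 mo, and Flrt1 low in aSyn Tg 15 mo, where its region was divided into 3 peaks. At the other end the downstream locus of Phlpp1, a phosphatase gene, had 11.4, 11.1, 11.4 and 11.2, that of Slitrk1, a synaptic adhesion gene, 10.8, 11.1, 11.0 and 11.1, and Bcl9l, a Wnt coactivator, 11.7, 11.2, 11.4 and 11.0.

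The 15 mo lists had somewhat higher values than the 3 mo lists at these loci. The ratio of aSyn Tg 15 mo to aSyn Tg 3 mo had a median of 1.09, with 203 loci higher and 77 lower, and that of Wt 15 mo to Wt 3 mo a median of 1.13, with 217 higher and 60 lower. Narrower single-exon peaks moved the same way, with median ratios of 1.07 in both comparisons. The ratio of aSyn Tg 3 mo to Wt 3 mo had a median of 1.09, with 193 higher and 88 lower, and that of aSyn Tg 15 mo to Wt 15 mo a median of 1.06, with 176 higher and 104 lower, against 1.03 and 1.02 for narrower peaks. The loci higher in the first list of each comparison were 72.0%, 77.0%, 68.4% and 62.4%, against 60.0%, 60.4%, 54.5% and 53.1% of pairs of narrower peaks. Medians over all peaks of the lists differed by factors between 1.01 and 1.1. The comparisons share lists, and no list has a replicate, so that these shifts could not be set against the spread between mice. Width changed little, with a median difference of -30 bases, 1 step of the caller, in aSyn Tg 15 mo minus aSyn Tg 3 mo, in aSyn Tg 3 mo minus Wt 3 mo and in aSyn Tg 15 mo minus Wt 15 mo, and of 0 in Wt 15 mo minus Wt 3 mo. The widths of a locus ranged over 120 bases in the median, and 5 loci had the same start and end in all lists. Adgrl3, the gene of the adhesion receptor latrophilin-3, was 1380 bases wide in every list, with fold enrichments of 7.47, 7.04, 7.10 and 6.96 in aSyn Tg 15 mo, aSyn Tg 3 mo, Wt 15 mo and Wt 3 mo. Cstf2t, a cleavage stimulation factor gene, was 840 bases wide, and Mast4, a kinase gene, 1111 bases.

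Some genes held more than 1 wide locus. Of the 719 genes with a wide peak, 50 had 2 or more wide loci and 4 had 3 or more. Whether this exceeds what exon length and input would give was not tested. Bsn, which encodes bassoon, the large scaffold of the presynaptic active zone, had 4, of which 3 lay side by side in its exon block of 6642 bases and 1 in the next block, all coding and wide in every list. Along the transcript the fold enrichment was 4.72, 5.97, 5.94 and 4.43 for the first locus in aSyn Tg 15 mo, aSyn Tg 3 mo, Wt 15 mo and Wt 3 mo, 8.88, 9.56, 8.91 and 7.52 for the next, 8.31, 8.95, 9.18 and 7.97 for the third and 4.94, 5.29, 6.15 and 4.97 for that of the next block. The 2 middle loci were thus above the outer 2 in all lists. Fat3, a giant cadherin, Pcdh17, a protocadherin of synapses, and Zfhx3, a homeobox and zinc-finger factor, had 3 loci each.

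Gene lists of long-exon proteins held wide peaks to differing degrees. Over all genes with a peak, 719 of 8361 (8.60%) had a wide one. Among microtubule and cytoskeletal genes it was 5 of 13, namely Map1a, Map1b, Ank2, Nefm and Nefh, each wide in all lists, with a median fold enrichment of 4.48 over their wide peaks. Of chromatin regulators 11 of 26 had a wide peak, with a median of 9.52, and Arid1b of the BAF remodelling complex and the acetyltransferase gene Crebbp were among those with one in all lists. Their fold enrichments in aSyn Tg 15 mo, aSyn Tg 3 mo, Wt 15 mo and Wt 3 mo were 14.3, 10.9, 11.6 and 11.8 for Arid1b, and 9.51, 8.11, 9.59 and 7.94 for Crebbp. Of RNA binding and splicing genes with a peak, 4 of 8 had a wide one, and Tnrc6a and Tnrc6b, scaffolds of microRNA silencing, had one in all lists. Of channels and transporters it was 4 of 10, with the voltage-gated channel genes Scn8a and Cacna1e in all lists, and a median fold enrichment of 12.7. Presynaptic genes had 2 of 9, Bsn and Pclo, and postsynaptic genes 3 of 15, Shank2, Dlgap4 and Grin2b, none in all lists. The clustered protocadherins, whose first exons are long, had 1 of 56, Pcdhac2. Zinc finger genes had 27 of 290 (9.31%) and long noncoding genes 25 of 584 (4.28%), among them Malat1, Peg13, Neat1 and Kcnq1ot1. The lists also differed in input. At least 50 counts were found for 31 of 57 listed protocadherins, 252 of 397 zinc finger genes and 358 of 13375 long noncoding genes. All genes of the other lists reached 50 counts. The part of input in these shares was not tested. The lists are short and were chosen with earlier results known, so the shares are descriptions.

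Few host genes were called as changed in RNA level. Input libraries were compared with edgeR's quasi-likelihood test, with calls made where the adjusted p was 0.05 or less and the fold change 1.2 or more. In bulk tissue fewer cells of a type and less RNA per cell cannot be told apart. For aSyn Tg 15 mo against aSyn Tg 3 mo, 4 of 507 tested genes with a wide peak in either list were called (0.789%), near the background of 0.918% of all 11007 genes tested. Of the 4, 2 were higher and 2 lower, where the background was 0.799% higher and 0.118% lower. In edgeR 72 of the 507 (14.2%) had an unadjusted p under 0.05, against 11.2% of all genes. For Wt 15 mo against Wt 3 mo, 3 of 598 host genes were called (0.502%, background 0.361%), all of them lower (background 0.13% higher and 0.232% lower). Here 126 of the 598 (21.1%) had an unadjusted p under 0.05 in edgeR, against 15.6% of all genes. For aSyn Tg 3 mo against Wt 3 mo none of 587 was called, beside a background of 0.835% (0.624% higher and 0.211% lower), while 81 (13.8%) had an unadjusted p under 0.05, against 12% of all genes, and DESeq2 also called 0. For aSyn Tg 15 mo against Wt 15 mo none of 551 was called, beside a background of 0.22% (0.191% higher and 0.0286% lower), with 92 (16.7%) at an unadjusted p under 0.05, against 11.2% of all genes, and with 3 calls by DESeq2 (0.544%, against 0.831% of all genes). The background of aSyn Tg 3 mo against Wt 3 mo itself depended on the fit, with 71 genes higher and 24 lower as given, and 3 higher and 10 lower with all 4 groups in 1 fit. The median log2 fold change of host genes was -0.01, -0.03, -0.02 and -0.01 in these 4 comparisons, and that of all genes lay between -0.002 and 0.0063. In the test of whether the change with age differed between aSyn Tg and Wt, 0 of 676 host genes passed an adjusted p of 0.05 in edgeR and 87 (12.9%) had an unadjusted p under 0.05, against 10.5% of all 10907 genes. The comparisons share groups, so their counts are not independent. Genes with a wide peak also had more input reads than genes with a narrower one, as given above. The part of this in their shares of unadjusted p under 0.05 was not tested.

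Csf1, the growth factor of microglia and macrophages, was higher with age in aSyn Tg. It had 225, 283, 266, 242 and 226 normalised counts in the aSyn Tg 15 mo libraries, against 176, 188, 171, 167 and 197 in the aSyn Tg 3 mo libraries. All 5 older libraries lay above all 5 younger ones. The log2 fold change was 0.47 ± 0.08 (SE; adjusted p = 0.0107, edgeR). In Wt the means of Csf1 were 175 counts at 15 mo and 170 at 3 mo. Its wide peak in the 3′UTR, of 986, 1045, 1075 and 1105 bases in aSyn Tg 15 mo, aSyn Tg 3 mo, Wt 15 mo and Wt 3 mo, had fold enrichments of 11.3, 9.84, 10.6 and 10.4. The 4 microglial markers, none of them at 0 (the lowest, Tmem119, averaged 60.6 counts), summed to 603 to 825 counts in aSyn Tg 15 mo against 533 to 547 in aSyn Tg 3 mo, and their part in this result was not tested. The 4 astrocyte markers, none at 0 and Slc1a2 among them with a wide peak, summed to 11581 to 13731 counts in aSyn Tg 15 mo against 10385 to 11362 in aSyn Tg 3 mo, again without overlap, and their part in the calls between these groups was not tested. Zfp36l2, an RNA-binding protein that promotes mRNA decay, had 174, 206, 220, 199 and 210 counts against 143, 142, 140, 178 and 158 in the same groups. The groups overlapped by 1 library on either side. Its log2 fold change was 0.41 ± 0.09 (SE; adjusted p = 0.0437, edgeR). In Wt its mean was lower at 15 mo, with 154 counts against 184 at 3 mo.

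Tmem151b, a transmembrane protein gene, was lower with age in aSyn Tg, with 458, 475, 455, 499 and 472 counts in aSyn Tg 15 mo against 578, 533, 561, 601 and 563 in aSyn Tg 3 mo. The groups did not overlap. The log2 fold change was -0.27 ± 0.05 (SE; adjusted p = 0.0113, edgeR), close to the fold limit. In Wt the mean of Tmem151b was also lower at 15 mo, with 529 counts against 624 at 3 mo. Hcn4, a pacemaker channel gene, had 116, 122, 131, 121 and 121 counts in aSyn Tg 15 mo against 156, 142, 165, 167 and 151 in aSyn Tg 3 mo, again without overlap, and a log2 fold change of -0.35 ± 0.07 (SE; adjusted p = 0.0437, edgeR). The Wt means of Hcn4 were 136 counts at 15 mo and 161 at 3 mo, with overlap between the groups. Its coding peak in the last exon block was wide in aSyn Tg 3 mo only, with 988 bases, and was listed as 2 peaks in each of the other lists. Cd72, with too few reads to be tested, had 10.1, 19, 28.9, 19.4 and 9.17 counts in aSyn Tg 15 mo against 2.24, 4.14, 0.95, 7.77 and 5.80 in aSyn Tg 3 mo, so that the groups did not overlap, and 0 to 4.42 in the Wt libraries. The wide peak listed under Cd72 had nearly the same fold enrichment in all 4 lists, as given above. Its input averaged only 2.57 counts in Wt 15 mo and 2.715 in Wt 3 mo. Whether reads of another gene entered this peak was not tested.

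In Wt, Gpr17, a receptor gene of committed oligodendrocyte precursors, was lower at 15 mo. It had 183, 190, 250, 171 and 200 counts in Wt 15 mo, against 341, 324, 409 and 312 in Wt 3 mo, without overlap. The log2 fold change was -0.81 ± 0.11 (SE; adjusted p = 0.0141, edgeR). In aSyn Tg the means of Gpr17 were 231 counts at 15 mo and 277 at 3 mo. The 2 precursor markers, Pdgfra and Cspg4, summed to 597 counts in the mean of Wt 15 mo against 702 in Wt 3 mo, neither at 0 and without overlap between the groups, and their part in this result was not tested. Its 3′UTR peak was wide in Wt 15 mo and Wt 3 mo, with 837 and 807 bases, and narrower in aSyn Tg 15 mo and aSyn Tg 3 mo, with 508 and 777 bases. Vgf, a neuropeptide precursor, had 988, 889, 1000, 875 and 757 counts in Wt 15 mo against 1264, 1093, 1129 and 1194 in Wt 3 mo, and a log2 fold change of -0.38 ± 0.07 (SE; adjusted p = 0.0496, edgeR). Soga1 had 755, 684, 866, 798 and 754 counts against 936, 966, 1007 and 919, and a log2 fold change of -0.31 ± 0.06 (SE; adjusted p = 0.0462, edgeR). Neither pair of groups overlapped. In aSyn Tg the means at 15 mo and 3 mo were 1140 and 1083 counts for Vgf, and 937 and 879 for Soga1. The neuronal markers, 4 of 4 found and none at 0, summed to 7834 to 9822 counts in Wt 15 mo against 7196 to 8097 in Wt 3 mo, and their part in the results of Vgf and Soga1 was not tested. The 3 thalamic markers, none at 0, averaged 3014 counts in sum in Wt 15 mo against 1784 in Wt 3 mo, with overlap between the groups, and their part in the Wt calls was not tested.

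Most of these calls depended on single libraries. The Csf1 call was kept when any of the 10 libraries was left out. The call of Gpr17 was lost without library 4 of Wt 3 mo (adjusted p = 0.0543, edgeR). That of Tmem151b was lost, by a fold change under 1.2 and not by the adjusted p, without library 2 or 4 of aSyn Tg 15 mo, and without library 1 or 5 of aSyn Tg 3 mo. Left out in turn, 7 of 10 libraries ended the call of Zfp36l2, all but libraries 2 and 5 of the older and library 5 of the younger aSyn Tg mice, and 8 of 10 that of Hcn4, all but library 5 of the older and library 3 of the younger. The calls of Vgf and Soga1 were each lost without 8 of 9 libraries and kept without library 3 of Wt 15 mo. The number of host genes called was 1 to 6 for aSyn Tg 15 mo against aSyn Tg 3 mo with a library left out, the 6 (1.18%, background 1.22%) without library 5 of aSyn Tg 15 mo. For Wt 15 mo against Wt 3 mo it was 24 (4.01%) without library 3 of Wt 15 mo, where 3.01% of all genes were called, and 0 or 1 without any other single library. The direction of each of the 7 stayed as given in all these fits.

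**Figure D5:**
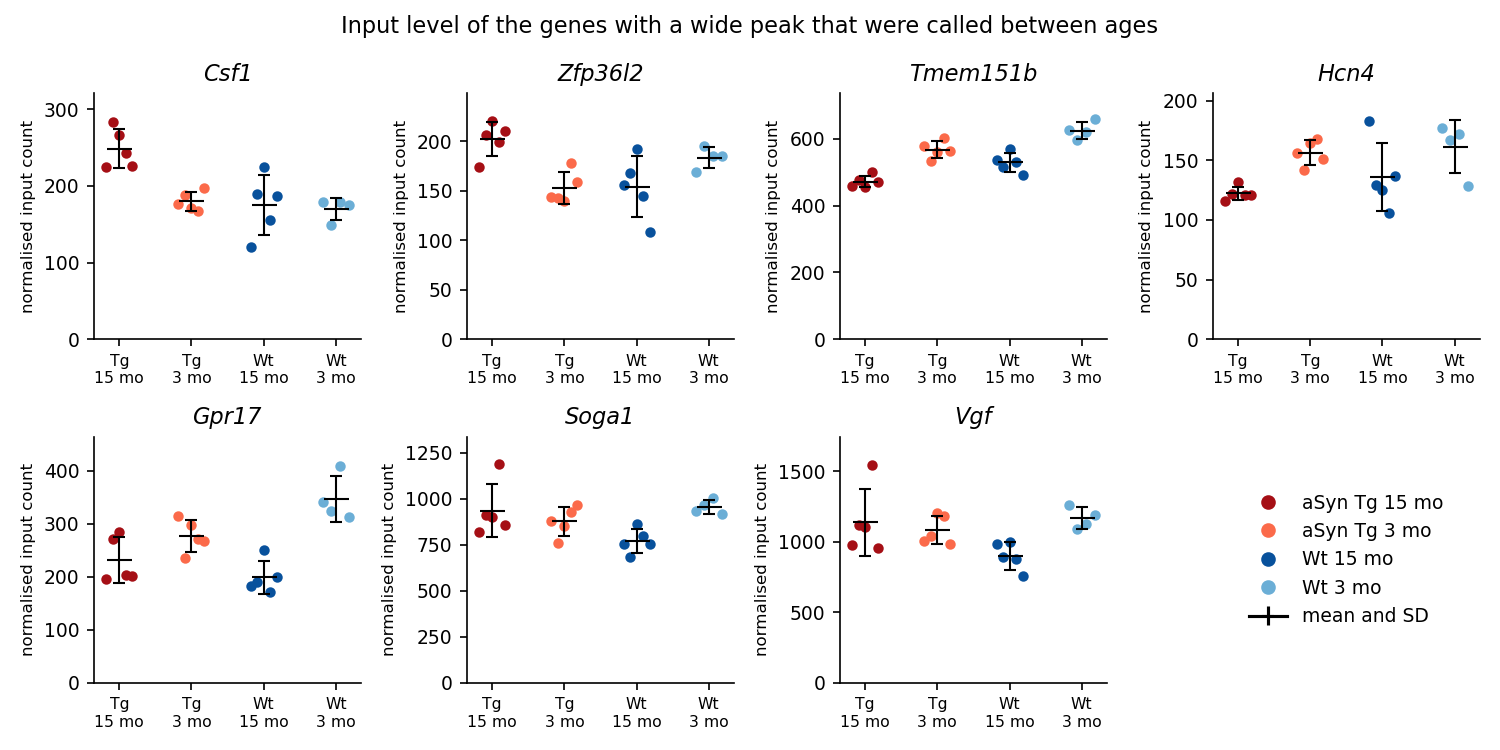
Normalised input counts (linear axes from 0) of the 7 genes with a wide peak that were called between ages, 1 point per library, with the mean and SD of each group in black. Csf1 and Zfp36l2 are higher and Tmem151b and Hcn4 lower in aSyn Tg 15 mo than in aSyn Tg 3 mo, and Gpr17, Soga1 and Vgf are lower in Wt 15 mo than in Wt 3 mo.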

How the data were processed

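Midbrain RNA of 40 samples, 5 input and 5 immunoprecipitated samples for each genotype and age, stands behind the data. In the study's methods, RNA was depleted of ribosomal RNA and fragmented, reads were trimmed with Cutadapt and aligned to mm10 with STAR, and peaks were called with MeTPeak, although the submitters' processing notes name mm9 and DESeq. The mm10 annotation GENCODE M21 placed the listed peaks, and of 54333 listed peaks on chromosomes of the reference 0 ended past their chromosome. The deposited peak lists, 1 per group, give a position, a fold enrichment (a ratio of immunoprecipitated over input signal, given by the authors for the whole group, by a formula that the sources do not give) and a score, the log10 of the false discovery rate, used here only as a stricter threshold. The starts of the blocks of multi-block peaks had lost their separators, so the whole span of such a peak was used for overlap. The deposited input tables hold, as a signal per gene and library, reads that the authors counted with featureCounts and divided by size factors. Whole reads were recovered from them, 100.0% of 392401 values being whole within 0.01, and were tested in place of the deposited counts that had been planned for. Of the 57 library columns, 19 were used, and the other 38 repeat the same libraries. The authors' fold changes and p-values, and the tables of their differential methylation comparisons with positions, fold changes and p-values, were not used. Because 2 libraries were read from another table, 1447 genes held only by the 4-group table, with at most 7.588 reads in the mean, were left out.

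Wide peaks were those with 1 block and a width of at least 800 bases. Overlap was counted from 1 base on the same strand, and loci are wide peaks joined by overlap. Peaks were set on exon blocks merged over the transcripts of the listed gene, and motifs were read from the RefSeq copy of GRCm38.p6 with pysam 0.24.0. Input reads were tested with edgeR 4.0.16 (R 4.3.3; TMM, quasi-likelihood F test, Benjamini-Hochberg adjustment over all genes with a mean normalised count of at least 50), fitted for the 2 groups of each comparison. Columns give the group but not the label's sample. Nothing in the labels says that libraries of a group came from separate animals, while the methods give 5 mice a group, so p-values measure the spread between these libraries. On simulated counts of 10375 to 11319 genes with 100 genes changed by 1.5-fold and 100 by 2-fold, the test recovered 82% to 88% and 90% to 98% over the 4 comparisons. False calls were 2.6% to 5% of those made. Smaller changes, such as most of those called here, and single deviating libraries were not simulated. Alternatives were DESeq2 1.42.0, upper quartile scaling, another low-count filter, 1 factor of unwanted variation, a fit of all 4 groups, other width limits and other overlaps. Genes named are those of the widest peaks, of the highest and lowest fold enrichments, with most wide loci, of highest and lowest input, with the most and least variable loci, closest to the width limit, or called, and members of lists of genes with long exons. Members and lists were chosen with earlier results of these data known. Some genes are not reported here. Tables were handled with Python 3.11.15 and pandas 2.3.3.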

Additional observations from a re-analysis of the deposited data

Results flagged for a closer look

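In 4 of the 32 combinations of 8 genes and 4 groups that were looked at, 1 library lay far from the others of its group, where chance gives about 1 in 20. Among genes with a wide peak, Csf1 was lowest in 1 Wt 3 mo library at 148.866 normalised counts, where the other 3 were between 174.71 and 178.54. Soga1 was highest in aSyn Tg 15 mo library 5 at 1189.923 counts, and Vgf in the same library at 1546.173 counts. Both genes were called only between the Wt ages, which do not use that library. It is the shallowest library, and it was also the highest for Thy1, whose promoter drives the transgene, at 12061.605 counts. Without aSyn Tg 15 mo library 5, 6 genes with a wide peak were called between aSyn Tg 15 mo and aSyn Tg 3 mo (1.18%, against 1.22% of all genes).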

How the results depend on the processing

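The fold changes of the 7 called genes kept their direction in all settings run, whereas the balance of higher and lower calls over all genes did not. With a width limit of 1000 bases 976 peaks remained, and the median fold enrichment over all lists, 8.82 at 800 bases, was 8.64, 9.085 and 9.13 at limits of 700, 900 and 1000 bases. Without the list assigned by elimination, an alternative chosen after seeing the data, it was 8.575. The median input of genes with a wide peak, 412 counts, was 507 counts with 1 value per peak, and 64.6 counts per kb of exon. Recurrence in all 3 other lists was 85.8% where at least 50% of the wide peak had to be covered, 80.6% where 50% of both peaks had to be, 56.9% where the partner had to be wide, and 94.7% with single-block partners only, the last chosen after seeing the data. The number of genes with a wide peak that were called moved with the test. For aSyn Tg 15 mo against aSyn Tg 3 mo it was 8 by DESeq2 (3 higher and 5 lower, against 2 and 2), 10 with 1 factor of unwanted variation, 3 with upper quartile scaling (2 higher and 1 lower), and 1 to 6 with a library left out, 1 without library 4 of the older or library 1 of the younger group, and 6 without aSyn Tg 15 mo library 5. For Wt 15 mo against Wt 3 mo it was 6 by DESeq2, 22 with the factor, and 0 to 24 with a library left out, 24 without Wt 15 mo library 3 and 0 without Wt 3 mo library 4. For aSyn Tg 3 mo against Wt 3 mo it was 1 with the factor and 0 without any 1 library. For aSyn Tg 15 mo against Wt 15 mo it was 3 by DESeq2, 1 with the factor, 4 with all 4 groups in 1 fit, and 0 to 1 with a library left out, 1 without Wt 15 mo library 3. The causes were not tested. Over all genes, calls in the 4 comparisons numbered 101, 39, 95 and 23 as reported, 159, 118, 106 and 87 by DESeq2, 179, 309, 186 and 34 with the factor, 210, 52, 137 and 32 with another low-count filter, which tested more genes, and 122, 80, 13 and 101 with all 4 groups in 1 fit, where the 13 were 3 higher and 10 lower against 71 and 24 as reported. With a library left out they ran from 52 to 138, 0 to 326, 28 to 165 and 11 to 42, the 326 without Wt 15 mo library 3 being 171 higher and 155 lower. DESeq2 called 61 genes higher and 57 lower in Wt 15 mo against Wt 3 mo, where edgeR called 14 and 25 (168 and 141 with the factor), and 65 higher and 22 lower in aSyn Tg 15 mo against Wt 15 mo, where edgeR called 20 and 3. Calls of Zfp36l2, Hcn4, Soga1 and Vgf were also lost with all 4 groups in 1 fit, and that of Tmem151b with upper quartile scaling. No paired analysis was possible because the columns do not carry the replicate numbers of the labels, and the fit with the number as a block was not run. Peak values have no replicates, and reads per peak are not given, so no error of a fold enrichment could be set.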
